A study of Homo sapiens with 10 samples.

Results

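Fanconi, homologous recombination and checkpoint genes make the proteins that unhook crosslinked DNA strands, rebuild broken chromosomes from an intact copy and hold the cell cycle while this is done. The 41 genes described here were chosen by name, by matching a list of symbols to the symbol column of the deposited table, and all 41 were found among its 16734 genes. They were measured in MIA PaCa-2, a human cell line labelled as pancreatic ductal adenocarcinoma. The tested libraries came from cells kept for 24 h in 10 µM hydroxyprogesterone caproate (HPC), a synthetic progestin, and the control libraries from cells kept as long in an equal volume of its solvent, DMSO. Each group had 5 libraries, numbered 1 to 5 and given below in that order. The labels call the libraries biological replicates of a single cell line and name no batch or day of culture. The p-values therefore describe how these 10 libraries scatter, which may be technical.

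In the Fanconi pathway, a core complex attaches ubiquitin to the paired FANCD2 and FANCI proteins at a crosslink, which brings nucleases to the site. The break left behind is repaired by homologous recombination, in which ends are cut back to single strands and the BRCA proteins help them find and invade the intact copy. The kinases ATM and ATR sense breaks and single-stranded DNA and signal through CHEK2 and CHEK1. Many of these genes are transcribed more in S phase than in resting cells.

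Values are FPKM, read fragments divided by gene length and by the size of the library, so each value is a share of the library's RNA and not an amount per cell. Reads recovered from the FPKM steps summed to 65851176 to 74477071 in the HPC libraries and 71602736 to 82218527 in the DMSO libraries. Genes encoded by mitochondria held 14.8% ± 0.717 of the FPKM in HPC and 22.6% ± 0.704 in DMSO (SD, n = 5 each). The 7 markers of the line summed to 537 to 575 FPKM in HPC and 872 to 913 FPKM in DMSO. Of the 4 tested, KRT8 (57.7 FPKM in HPC, 51.8 FPKM in DMSO) and KRT18 (150 FPKM in HPC, 114 FPKM in DMSO) were higher, and KRT19 (10.1 FPKM in HPC, 24.0 FPKM in DMSO) and VIM (333 FPKM in HPC, 695 FPKM in DMSO) were lower. EPCAM and CDH1 were at or near 0, at most 0.0111 and 0.00606 FPKM in any library. The summed fibroblast markers lay between 0.786 and 1.08 FPKM in HPC and between 24.6 and 27.0 FPKM in DMSO, most of it COL1A2, with DCN and LUM near 0. The summed leukocyte markers lay between 8.35 and 10.9 FPKM in HPC and between 2.87 and 3.81 FPKM in DMSO, most of it CD68, with PTPRC at most 0.00291 FPKM. CD68 averaged 9.77 FPKM in HPC and 2.75 FPKM in DMSO. LYZ went the other way, with 0.0530 FPKM in HPC and 0.467 FPKM in DMSO. The summed endothelial markers lay between 0.0152 and 0.0368 FPKM in HPC and between 1.43 and 1.53 FPKM in DMSO, in DMSO nearly all of it CDH5, with PECAM1 at most 0.00844 FPKM.

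Most of the 41 genes were lower in HPC. Their mean levels had a median of 0.938 FPKM in HPC and 2.10 FPKM in DMSO, and ranged from 0.209 to 5.62 FPKM in HPC and from 0.356 to 7.52 FPKM in DMSO. Fitted without a filter on low values, so that every member was included, 34 of the 41 (82.9%) were lower, 3 were higher and 4 were not called (limma on log2(FPKM + 0.1), Benjamini-Hochberg adjusted p under 0.05). In the same fit 67.4% of all 16734 genes were called, 36.2% lower and 31.2% higher. A fall of at least 1.5-fold was called in 28 members (68.3%), against 16.8% of all genes, and of at least 2-fold in 17 members (41.5%), against 7.97%. A rise of at least 1.5-fold was called in 2 members, against 12.4% of all genes, and of at least 2-fold in 0 members, against 5.43%. All 5 HPC values lay below all 5 DMSO values in 33 members (80.5%), against 31.7% of all genes, and above them in 2 members, against 26.6%. The median log2 fold change was -0.92 over the members and -0.01 over all genes.

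The tests given below for single genes come from the fit over the 9150 genes that reached 1 FPKM in 5 or more libraries. It held 34 of the members, of which 27 were lower, 3 higher and 4 not called, while 87.7% of the 9150 genes were called, 44.8% lower and 42.9% higher. A fall of at least 1.5-fold was called in 23 of them, against 20.3% of the 9150 genes, and a rise of that size in 2, against 16.9%. Of these 34, 11 reached 1 FPKM in no HPC library and so entered through the DMSO libraries alone, which means that they had to be lower. They are FANCA, FANCB, FANCC, FANCD2, BRCA1, BRCA2, BARD1, RAD54L, RMI2, CHEK2 and C1orf112. For these 11 the filter fixed the direction, so their p-values below do not bear on it. All 11 were also called lower in the fit without a filter. BRIP1, RAD54B and CHEK1 reached 1 FPKM in 1 HPC library and in all 5 DMSO libraries, so the DMSO libraries were enough for them to enter. These genes too were called lower without the filter. In the other direction, MUS81, RAD50 and SLX4 reached 1 FPKM in all 5 HPC libraries, but in 4, 4 and 3 DMSO libraries. The 17 members with at least 1 FPKM in all 10 libraries held 13 lower, 2 higher and 2 not called. No share over all genes at that level is given beside this count, so it cannot be read against them. The 7 members left out, FANCM, FAAP24, RAD51B, RAD51D, XRCC3, BLM and EME1, are given with the fit without a filter.

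Reads over some of these genes can also belong to a neighbour. In GENCODE 29, 16 members share exon bases with another gene of the table, 10 of them at least 10% of their exon bases and 4 on the same strand, where strand does not separate the reads. RAD50 is the widest case and is described below, and RAD54B shares 59.1% of its exon bases with FSBP, which averaged 0.855 ± 0.1002 FPKM in HPC and 0.672 ± 0.0683 FPKM in DMSO. RAD51D shares 8.01% with the readthrough gene RAD51L3-RFFL and CHEK1 1.22% with STT3A. On the opposite strand XRCC3 shares 76.7% with KLC1, RAD54L 25.1% with LRRC41, FANCA 23.6% with ZNF276, C1orf112 21.7% with SCYL3, FANCL 18.7% with VRK2, EME1 16.4% with LRRC59, MUS81 13.9% with CFL1 and FANCF 11.3% with GAS2. Of these neighbours LRRC59 averaged 108 ± 7.49 FPKM in HPC and 47.3 ± 1.17 FPKM in DMSO, and CFL1 21.0 ± 0.620 FPKM in HPC and 36.5 ± 0.638 FPKM in DMSO. EME1 was lower where LRRC59 was higher, and MUS81 higher where CFL1 was lower. In the fit without a filter LRRC41, SCYL3 and VRK2 were also higher beside lower members. KLC1 (-0.09) was lower, as XRCC3 was, and ZNF276 and GAS2 were not called. The part of shared reads in the members' values was not tested outside RAD50.

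**Figure D1:**
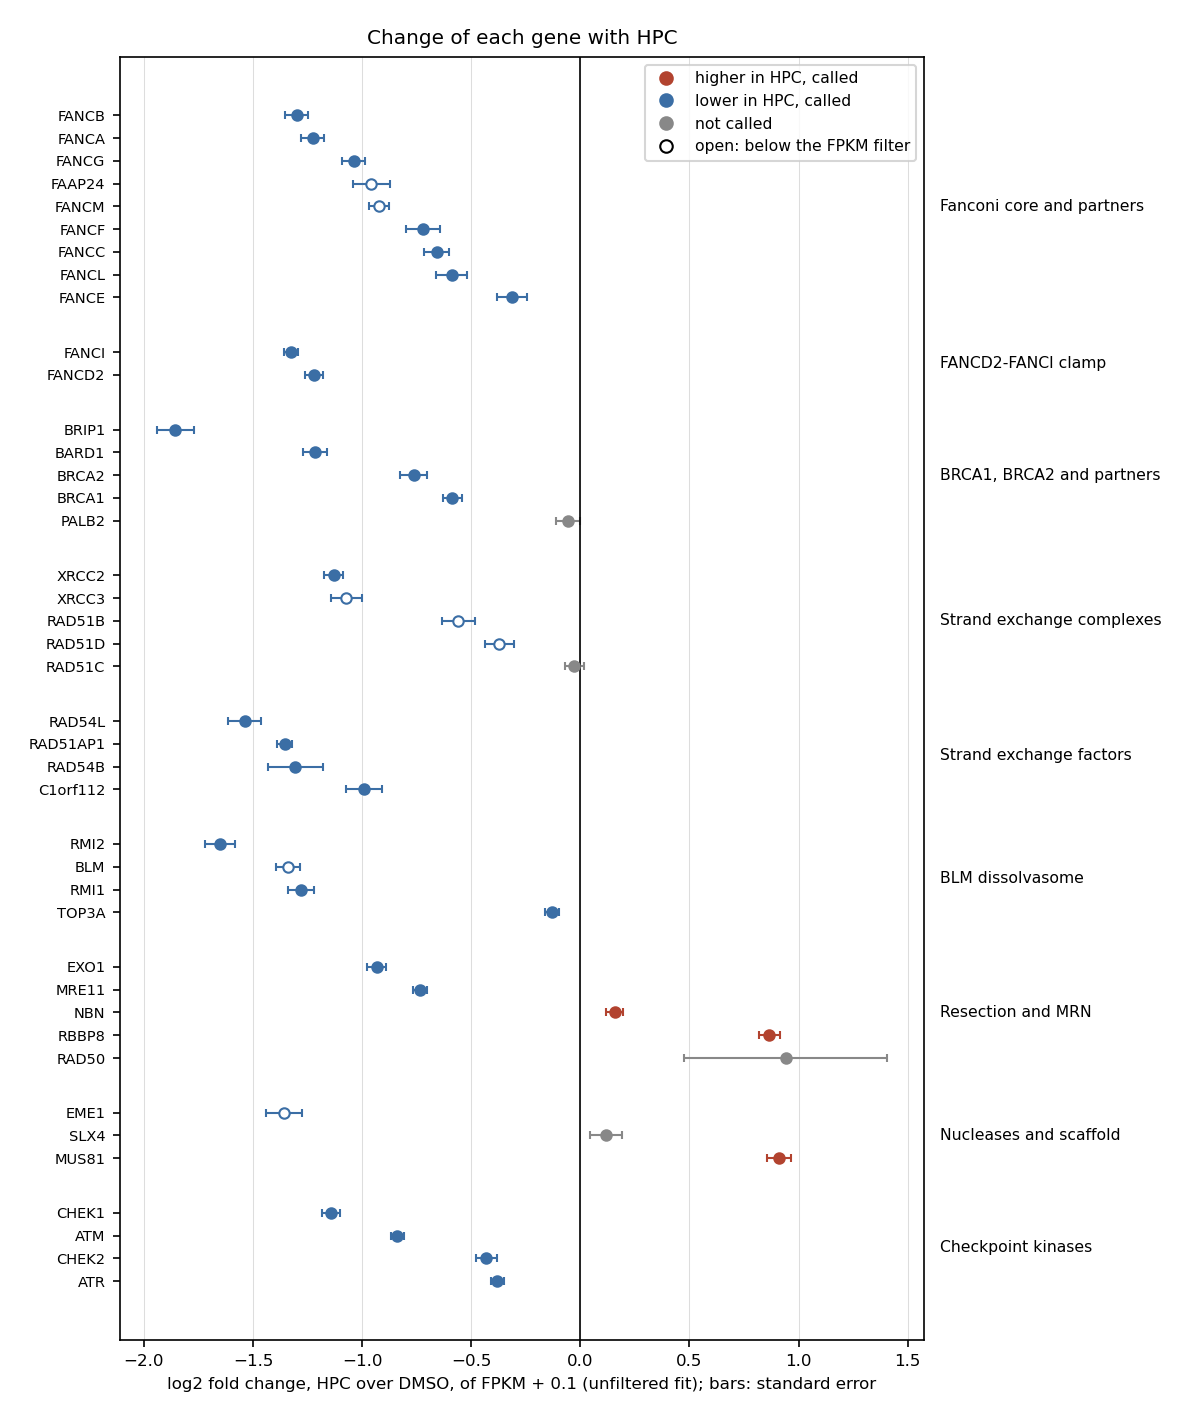
Log2 fold change of FPKM + 0.1, HPC over DMSO, of the 41 genes from the fit without a filter, grouped by role, with bars for the standard error. Open circles are the 7 genes below the filter. The 34 genes called lower lie left of 0, RBBP8, NBN and MUS81 are called higher, and RAD50 has the widest standard error, 0.47.

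The proliferation markers moved with these genes. All 6 were lower in HPC, with a median log2 fold change of -1.65, and their summed level lay between 90.0 and 96.2 FPKM in HPC and between 291 and 313 FPKM in DMSO. MKI67, a nuclear protein of cycling cells, averaged 3.93 ± 0.210 FPKM in HPC and 16.0 ± 0.384 FPKM in DMSO, and TOP2A, a topoisomerase of dividing cells, 28.6 ± 1.61 FPKM in HPC and 120 ± 2.52 FPKM in DMSO (SD, n = 5 each). PCNA, the replication clamp, averaged 33.8 ± 1.12 FPKM in HPC and 88.0 ± 3.04 FPKM in DMSO, and MCM2, a subunit of the replicative helicase, 3.90 ± 0.0975 FPKM in HPC and 12.6 ± 0.216 FPKM in DMSO. The cyclin CCNB1 averaged 17.1 ± 0.533 FPKM in HPC and 43.7 ± 2.08 FPKM in DMSO, and CCNA2 5.34 ± 0.413 FPKM in HPC and 16.7 ± 1.05 FPKM in DMSO. Their part in the results on the repair genes was not tested. In bulk RNA, fewer cycling cells and less of these transcripts per cell cannot be told apart.

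**Figure D2:**
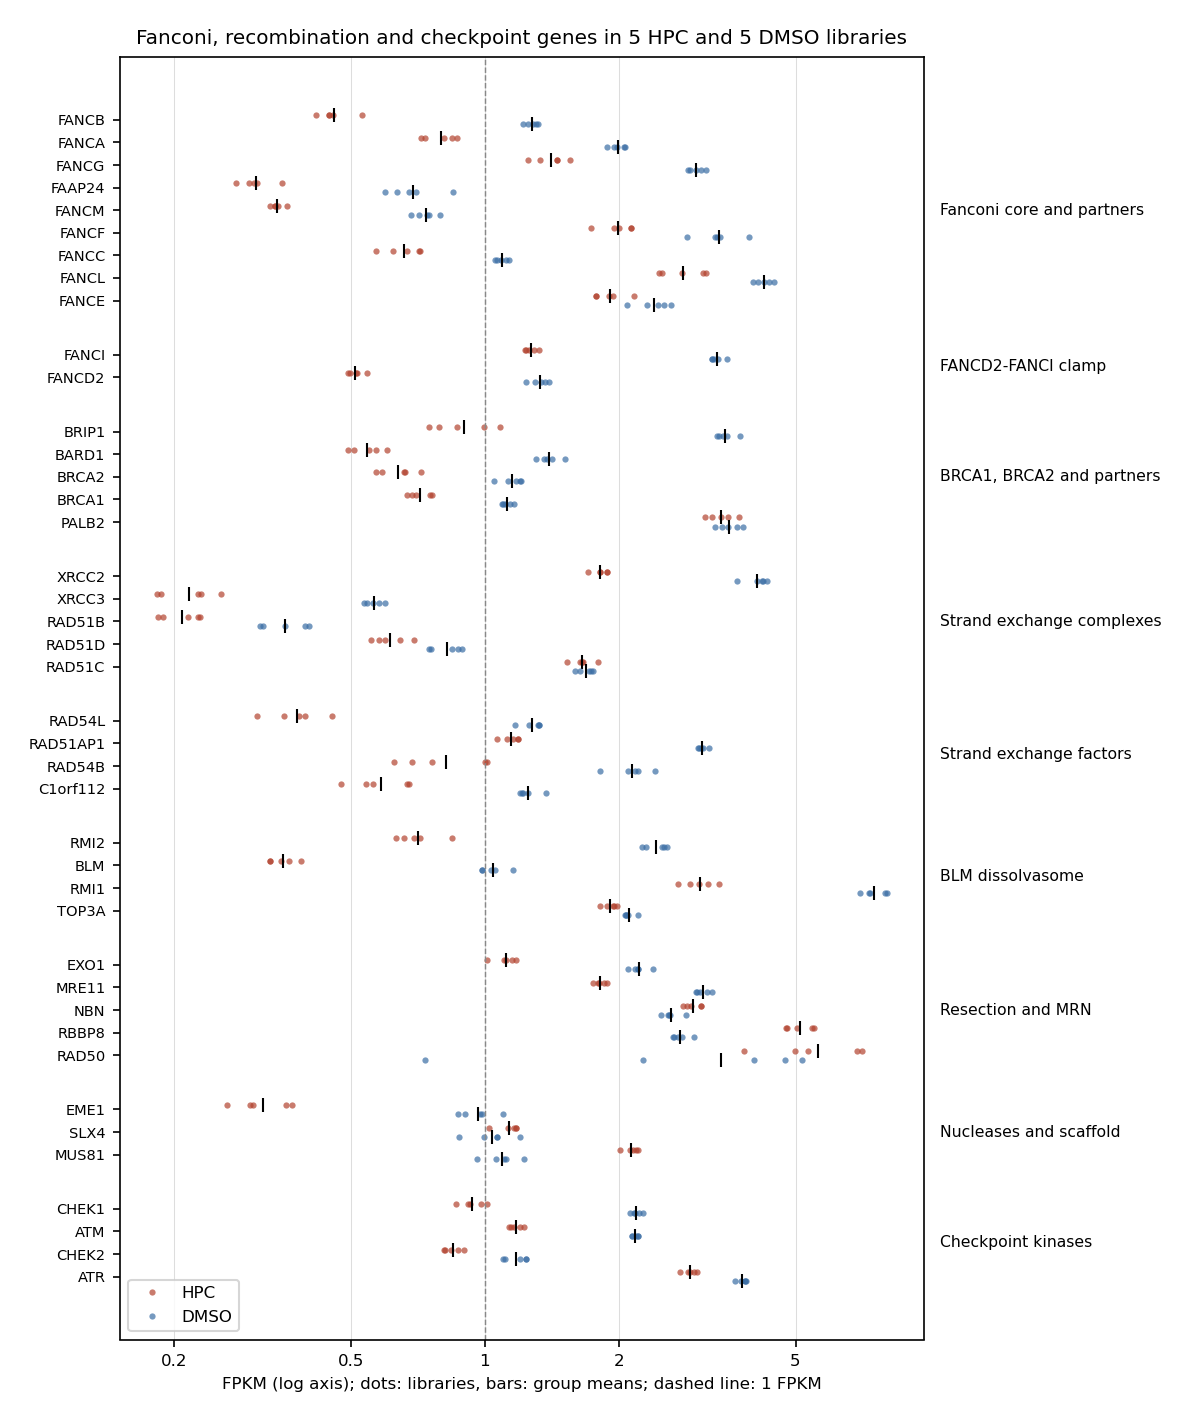
FPKM on a log axis of each of the 41 genes in every library, HPC dots above DMSO dots, grouped by role, with bars at the group means. The HPC dots lie left of the DMSO dots, at lower FPKM, without overlap in 33 genes and right of them in RBBP8 and MUS81, and the RAD50 dots spread far more than the rest.

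The Fanconi core complex, the ubiquitin ligase of the pathway, and its DNA-binding partners were lower throughout: all 9 genes passed the fit without a filter. With the filter 7 of 7 tested genes passed, with a median log2 fold change of -0.72. Of these, FANCA, FANCB and FANCC had entered through the DMSO libraries alone. FANCB, which with FANCL forms the catalytic module, measured 0.417, 0.456, 0.529, 0.447 and 0.445 FPKM in HPC, against 1.32, 1.25, 1.22, 1.30 and 1.28 FPKM in DMSO. Every HPC value was below every DMSO value, and the log2 fold change was -1.30 (SE 0.057, adjusted p = 9.49e-11, limma). FANCB lies on chromosome X at 14835961 to 14873069, minus strand (GENCODE 29, GRCh38). The scaffold subunit FANCA averaged 0.795 ± 0.066 FPKM in HPC and 1.99 ± 0.0736 FPKM in DMSO, and its partner FANCG 1.41 ± 0.117 FPKM in HPC and 2.99 ± 0.115 FPKM in DMSO, with log2 fold changes of -1.23 and -1.04. The remaining tested subunits changed less. FANCL, which carries the ligase activity, fell by 0.59 on the log2 scale, and the substrate-binding subunits FANCC, FANCF and FANCE by 0.66, 0.72 and 0.31. FANCE, at 1.91 ± 0.159 FPKM in HPC and 2.40 ± 0.208 FPKM in DMSO, was the core gene whose groups overlapped. FANCM, the translocase that anchors the complex to DNA, averaged 0.341 ± 0.0111 FPKM in HPC and 0.735 ± 0.0415 FPKM in DMSO, and its partner FAAP24 0.306 ± 0.0269 FPKM in HPC and 0.691 ± 0.0964 FPKM in DMSO. Both passed the fit without a filter, at -0.92 and -0.96.

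The clamp that the core complex ubiquitinates fell as a pair. FANCD2 measured 0.542, 0.491, 0.513, 0.514 and 0.496 FPKM in HPC, against 1.30, 1.24, 1.39, 1.34 and 1.36 FPKM in DMSO (log2 fold change -1.22, SE 0.048, adjusted p = 3.03e-11, limma). FANCI measured 1.23, 1.24, 1.29, 1.26 and 1.33 FPKM in HPC, against 3.51, 3.29, 3.24, 3.24 and 3.34 FPKM in DMSO (-1.32, SE 0.037, adjusted p = 9.95e-13, limma). In neither gene did the groups overlap. The ratio of FANCD2 to FANCI within a library was 0.404 ± 0.0241 in HPC and 0.400 ± 0.0255 in DMSO (SD, n = 5 each).

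Of BRCA1, BARD1, BRCA2 and the proteins that bind them, 4 of 5 were lower. BRIP1, the helicase that binds BRCA1, had the largest fall of the 41 genes, with 0.787, 0.748, 0.865, 1.08 and 0.995 FPKM in HPC, against 3.51, 3.37, 3.34, 3.74 and 3.44 FPKM in DMSO. The HPC mean was 25.7% of the DMSO mean and the groups did not overlap (log2 fold change -1.86, SE 0.082, adjusted p = 1.09e-10, limma). BRIP1 lies on chromosome 17 at 61681266 to 61863521, minus strand. BRCA1, a ubiquitin ligase that directs breaks to recombination, measured 0.666, 0.685, 0.700, 0.762 and 0.754 FPKM in HPC, against 1.16, 1.11, 1.09, 1.10 and 1.14 FPKM in DMSO (-0.59, SE 0.048, adjusted p = 6.39e-08, limma). Its obligate partner BARD1 fell further, to 0.544 ± 0.0446 FPKM in HPC, against 1.39 ± 0.0795 FPKM in DMSO (-1.22). BRCA2, which acts on the resected single strands, measured 0.568, 0.718, 0.663, 0.656 and 0.586 FPKM in HPC, against 1.20, 1.13, 1.05, 1.18 and 1.21 FPKM in DMSO (-0.76, SE 0.064, adjusted p = 8.27e-08, limma). PALB2, the bridge between BRCA1 and BRCA2, was not called: it averaged 3.41 ± 0.241 FPKM in HPC and 3.55 ± 0.207 FPKM in DMSO, and the groups overlapped (-0.06, adjusted p = 0.311, limma). When the FPKM were rescaled without the genes encoded by mitochondria, PALB2 was called lower, at -0.22.

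The group of RAD51B, RAD51C, RAD51D, XRCC2 and XRCC3, which form complexes that help strand exchange, held 4 lower genes and 1 not called in the fit without a filter. XRCC2 measured 1.82, 1.70, 1.88, 1.88 and 1.82 FPKM in HPC, against 4.20, 3.70, 4.23, 4.09 and 4.31 FPKM in DMSO, without overlap (-1.13, SE 0.045, adjusted p = 3.73e-11, limma). RAD51C, which sits in both paralog complexes, averaged 1.66 ± 0.0959 FPKM in HPC and 1.69 ± 0.0685 FPKM in DMSO and was not called (-0.03, adjusted p = 0.582, limma). The other three were below the filter and passed the fit without it. RAD51B averaged 0.209 ± 0.0209 FPKM in HPC and 0.356 ± 0.0418 FPKM in DMSO, RAD51D 0.613 ± 0.0555 FPKM in HPC and 0.822 ± 0.0652 FPKM in DMSO, and XRCC3 0.216 ± 0.0308 FPKM in HPC and 0.562 ± 0.0249 FPKM in DMSO, with log2 fold changes of -0.56, -0.37 and -1.07.

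The 4 accessory factors of strand exchange were all lower, with a median log2 fold change of -1.33. RAD54L, a translocase that drives strand invasion, measured 0.307, 0.452, 0.353, 0.381 and 0.393 FPKM in HPC, against 1.32, 1.32, 1.33, 1.26 and 1.17 FPKM in DMSO. The groups did not overlap (-1.54, SE 0.076, adjusted p = 2.97e-10, limma). RAD51AP1, which promotes pairing of the invading strand, averaged 1.14 ± 0.0512 FPKM in HPC and 3.08 ± 0.0739 FPKM in DMSO (-1.36), and the translocase RAD54B 0.817 ± 0.179 FPKM in HPC and 2.14 ± 0.216 FPKM in DMSO (-1.31). C1orf112, now named FIRRM, a partner of the ATPase FIGNL1, measured 0.541, 0.474, 0.559, 0.673 and 0.667 FPKM in HPC, against 1.37, 1.22, 1.25, 1.20 and 1.21 FPKM in DMSO. Its groups did not overlap either (-0.99, SE 0.08, adjusted p = 5.67e-08, limma).

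The BLM complex undoes joined DNA molecules without crossing over. RMI2, a small subunit of it, measured 0.632, 0.693, 0.716, 0.842 and 0.658 FPKM in HPC, against 2.53, 2.51, 2.31, 2.25 and 2.57 FPKM in DMSO, without overlap (-1.65, SE 0.067, adjusted p = 4.22e-11, limma). RMI1, the gene of highest level in DMSO among the 41, averaged 3.04 ± 0.252 FPKM in HPC and 7.52 ± 0.457 FPKM in DMSO (-1.28). The helicase BLM, below the filter, averaged 0.351 ± 0.0241 FPKM in HPC and 1.04 ± 0.0717 FPKM in DMSO (-1.34 without the filter). The topoisomerase TOP3A stood apart from its 3 partners. It averaged 1.91 ± 0.066 FPKM in HPC and 2.10 ± 0.061 FPKM in DMSO (-0.13, adjusted p = 0.00448, limma), and after quantile normalization it was not called (adjusted p = 0.075).

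The genes of the MRN complex, which holds broken ends, and of end resection moved in both directions. EXO1, the long-range exonuclease, measured 1.01, 1.15, 1.11, 1.18 and 1.12 FPKM in HPC, against 2.39, 2.10, 2.21, 2.21 and 2.17 FPKM in DMSO (-0.93, SE 0.048, adjusted p = 4.42e-10, limma), and the MRN nuclease MRE11 averaged 1.82 ± 0.052 FPKM in HPC and 3.09 ± 0.109 FPKM in DMSO (-0.73). RBBP8, also called CtIP, which starts resection together with MRE11, was higher. It measured 4.76, 4.78, 5.44, 5.51 and 5.04 FPKM in HPC, against 2.96, 2.77, 2.66, 2.73 and 2.65 FPKM in DMSO (0.87, SE 0.048, adjusted p = 1.14e-09, limma). All HPC values of RBBP8 lay above all DMSO values. NBN, the MRN subunit that recruits ATM, measured 2.79, 2.85, 3.06, 2.91 and 3.06 FPKM in HPC, against 2.61, 2.83, 2.60, 2.59 and 2.49 FPKM in DMSO, and the groups overlapped (0.16, SE 0.041, adjusted p = 0.0029, limma). When the FPKM were rescaled without the genes encoded by mitochondria, NBN stood at -0.0057 and was not called (adjusted p = 0.90).

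RAD50, the ATPase of the MRN complex, was singled out after its values were seen. It measured 3.84, 7.05, 4.99, 6.86 and 5.35 FPKM in HPC, against 4.74, 0.734, 4.04, 2.27 and 5.18 FPKM in DMSO. The groups overlapped, the coefficient of variation was 24.0% in HPC and 54.7% in DMSO, and the gene was not called (0.94, SE 0.51, adjusted p = 0.115, limma). The table also lists AC116366.3 (ENSG00000283782), which lies on the same strand and shares 7784 exon bases with RAD50, 79.7% of RAD50's exon bases. AC116366.3 held 9739, 27, 6103, 3231 and 5704 recovered reads in HPC, and 1421, 14150, 3603, 8958 and 0 in DMSO. It was high where RAD50 was low: RAD50 held 11413, 20772, 16026, 19511 and 15179 reads in HPC, and 15180, 2317, 14328, 6997 and 15987 in DMSO. The RAD50 share of the sum ran from 54.0% to 99.9% in HPC and from 14.1% to 100% in DMSO, whereas the sum itself was 21152, 20799, 22129, 22742 and 20883 reads in HPC and 16601, 16467, 17931, 15955 and 15987 reads in DMSO. Put on the RAD50 scale, the sum was 7.28 ± 0.433 FPKM in HPC and 5.16 ± 0.0602 FPKM in DMSO, with coefficients of variation of 5.95% and 1.17%. In a fit added after these values were seen, the sum was higher in HPC (0.49, SE 0.037, adjusted p = 3.01e-08, limma). Why the split between the overlapping genes differed among libraries was not tested.

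**Figure D3:**
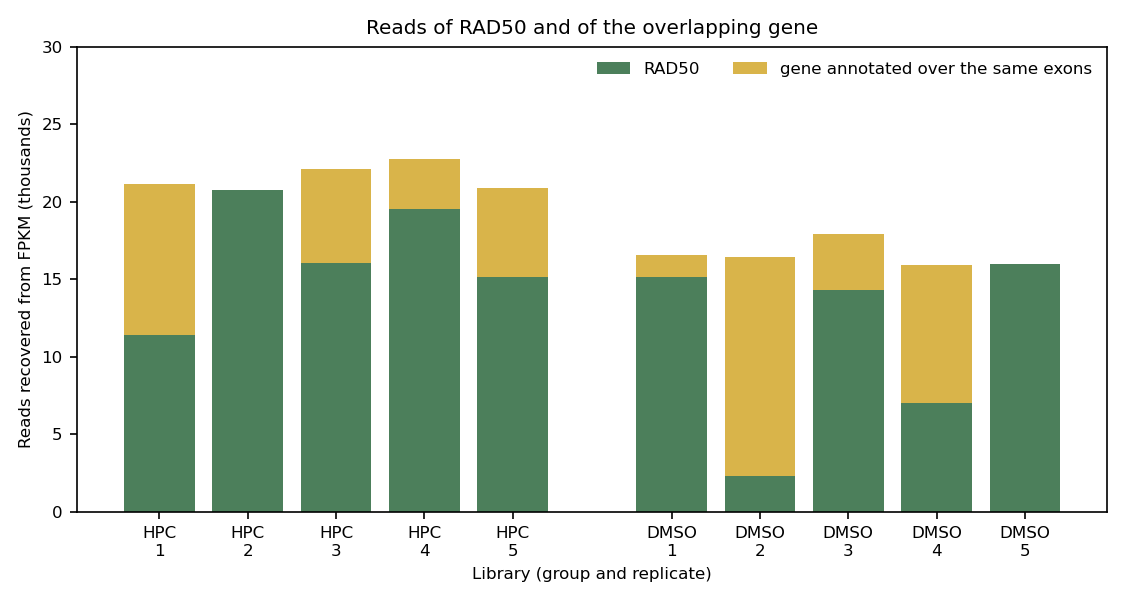
Recovered reads of RAD50 and of the overlapping gene AC116366.3 stacked for each library, HPC left and DMSO right. The share of RAD50 varies from 14.1% to 100% of the bar, while the whole bars stay between 20799 and 22742 reads in HPC and between 15955 and 17931 reads in DMSO.

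Of the structure-selective nucleases, which cut joined molecules, MUS81 was higher while its partner was lower. MUS81 measured 2.19, 2.12, 2.21, 2.01 and 2.15 FPKM in HPC, against 1.12, 1.10, 1.22, 0.961 and 1.06 FPKM in DMSO, and the groups did not overlap (0.91, SE 0.055, adjusted p = 2.71e-09, limma). EME1, the non-catalytic partner that MUS81 needs to cut, averaged 0.317 ± 0.0443 FPKM in HPC and 0.966 ± 0.0874 FPKM in DMSO. It was below the filter, and the fit without it gave a log2 fold change of -1.36 (adjusted p = 5.24e-08, limma). The scaffold SLX4 averaged 1.13 ± 0.0643 FPKM in HPC and 1.04 ± 0.118 FPKM in DMSO, with overlapping groups (0.12, adjusted p = 0.132, limma).

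The 4 checkpoint kinases were all lower. ATM, which responds to double-strand breaks, measured 1.15, 1.20, 1.13, 1.23 and 1.16 FPKM in HPC, against 2.14, 2.18, 2.14, 2.22 and 2.21 FPKM in DMSO (-0.84, SE 0.036, adjusted p = 7.16e-11, limma). ATR, which responds to single-stranded DNA at stalled forks, measured 2.74, 3.00, 2.96, 2.87 and 2.90 FPKM in HPC, against 3.65, 3.85, 3.84, 3.87 and 3.77 FPKM in DMSO (-0.38, SE 0.033, adjusted p = 1.14e-07, limma). Neither kinase had overlapping groups. Of the downstream kinases, CHEK1 measured 0.860, 1.01, 0.915, 0.926 and 0.978 FPKM in HPC, against 2.22, 2.26, 2.18, 2.16 and 2.12 FPKM in DMSO (-1.14, SE 0.045, adjusted p = 3.25e-11, limma). CHEK2 measured 0.812, 0.808, 0.841, 0.899 and 0.872 FPKM in HPC, against 1.24, 1.24, 1.10, 1.20 and 1.11 FPKM in DMSO (-0.43, SE 0.05, adjusted p = 2.56e-06, limma). The HPC values of both lay below all DMSO values.

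Genes were compared in pairs by the ratio of their FPKM within a library, which no scaling between libraries can change. Most pairs make partner proteins, while ATM and ATR, CHEK1 and CHEK2, and RAD54L and RAD54B make proteins of like role. The 14 pairs were tested after the members' values were seen, by an exact two-sided permutation test over the 252 ways of dividing the libraries, adjusted over the 14 pairs. In 11 pairs the ratio differed between the groups without overlap, at the smallest p the design allows (0.00794, adjusted 0.0101, exact permutation test). How many other gene pairs would separate so was not computed. Among all single genes, the HPC values lay wholly below the DMSO values in 31.7% and wholly above them in 26.6%. The count of 11 therefore does not set these pairs apart from other genes. The widest change was EME1 over MUS81, 0.148 ± 0.0185 in HPC and 0.889 ± 0.108 in DMSO, a log2 difference of -2.58. BLM over TOP3A was 0.184 ± 0.0175 in HPC and 0.496 ± 0.0403 in DMSO, and RAD51C over XRCC3 was 7.78 ± 1.11 in HPC and 3.00 ± 0.0915 in DMSO. MRE11 over NBN was 0.620 ± 0.0216 in HPC and 1.18 ± 0.078 in DMSO. Within the MRN complex the genes thus changed unequally. BRCA2 over PALB2 was 0.187 ± 0.0117 in HPC and 0.325 ± 0.012 in DMSO, and BRCA1 over BARD1 was 1.32 ± 0.149 in HPC and 0.806 ± 0.0557 in DMSO. CHEK1 over CHEK2 was 1.11 ± 0.0849 in HPC and 1.86 ± 0.0796 in DMSO, and ATM over ATR was 0.406 ± 0.0167 in HPC and 0.574 ± 0.013 in DMSO. FANCD2 over FANCI (adjusted p = 0.833), FANCM over FAAP24 (adjusted p = 0.641) and RAD54L over RAD54B (adjusted p = 0.111) did not pass the exact permutation test. RAD54L over RAD54B was 0.482 ± 0.145 in HPC and 0.603 ± 0.0765 in DMSO, and FANCM over FAAP24 was 1.12 ± 0.0951 in HPC and 1.08 ± 0.133 in DMSO.

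**Figure D4:**
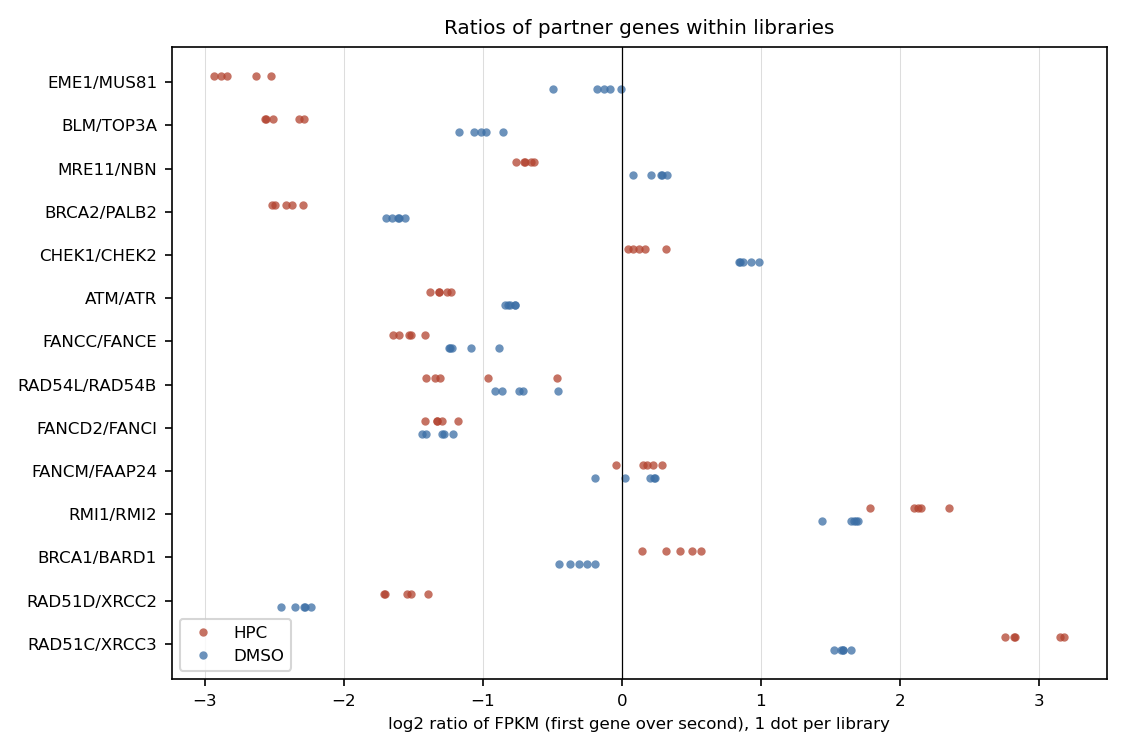
Log2 of the ratio of FPKM between paired genes (partners or genes of like role) within each library, with HPC dots above DMSO dots for each of the 14 pairs. EME1 over MUS81 has the widest gap, with mean ratios of 0.148 in HPC and 0.889 in DMSO, while the dots of FANCD2 over FANCI overlap, with mean ratios of 0.404 in HPC and 0.400 in DMSO.

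The promoters of these genes were read for motifs of cell cycle transcription factors, because most of the genes fell together. Promoters of 250 bases before to 50 bases after the start were taken from RefSeq (GRCh38.p14) and matched 37 of the 41 genes. GGCGGGAA, a form of the E2F site, was found on either strand in 11 of the 37 (29.7%), against 3.79% of the 27305 genes of the promoter table and 6.88% of its 7525 tested genes. Its shorter core GCGGGAA, which every GGCGGGAA contains, was found in 16 (43.2%), against 7.82% and 13.7%. CCAAT, the NF-Y site, was found in 17 (45.9%), against 39.7% and 43.1%, and the CHR element, searched as TTTGAA or TTCGAA, in 5 (13.5%), against 19.5% and 14.5%. Members with GGCGGGAA had a median log2 fold change of -1.22 and those without of -0.73 (fit without a filter), while tested genes with and without it stood at -0.14 and -0.00. The members' shares and medians include genes below the filter, such as BLM and XRCC3, and those of the tested genes do not. The stretches below are from genes with GGCGGGAA. BRIP1, RAD54L, RAD51AP1, BLM, RMI1 and FANCD2 are those with the largest falls, and TOP3A holds the same letters with a log2 fold change of -0.13. The genes with GGCGGGAA that are not shown are FANCC (-0.66), FANCL (-0.59), XRCC2 (-1.13) and XRCC3 (-1.07). Large falls were also found without GGCGGGAA or GCGGGAA, in EME1 (-1.36), FANCB (-1.30), FANCA (-1.23) and CHEK1 (-1.14). RBBP8 (0.87), RAD50 (0.94), SLX4 (0.12) and MUS81 (0.91) lack both as well. MUS81, which was higher, is shown as a stretch with no match, while its CCAAT lies elsewhere in the promoter. Each has 90 bases, from 80 before the start to 10 after it except for TOP3A (130 to 41 before it), 5′ to 3′ on the gene's strand. Capitals mark GGCGGGAA or its reverse complement TTCCCGCC, and CCAAT or its reverse complement ATTGG. A match is a description of letters and not of binding.
BRIP1 (chr17:61863519-61863608, minus strand): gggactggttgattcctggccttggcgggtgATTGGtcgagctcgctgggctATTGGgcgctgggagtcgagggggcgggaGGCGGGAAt
RAD54L (chr1:46247608-46247697, plus strand): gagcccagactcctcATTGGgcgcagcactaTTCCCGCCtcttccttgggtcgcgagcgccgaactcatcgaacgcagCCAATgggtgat
RAD51AP1 (chr12:4538810-4538899, plus strand): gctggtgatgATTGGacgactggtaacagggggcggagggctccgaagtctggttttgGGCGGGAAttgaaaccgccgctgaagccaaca
BLM (chr15:90717266-90717355, plus strand): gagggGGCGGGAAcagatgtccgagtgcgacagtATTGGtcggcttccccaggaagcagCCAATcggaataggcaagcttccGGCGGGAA
RMI1 (chr9:83980725-83980814, plus strand): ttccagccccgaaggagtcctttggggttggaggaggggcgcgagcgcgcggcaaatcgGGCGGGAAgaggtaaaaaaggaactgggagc
FANCD2 (chr3:10026357-10026446, plus strand): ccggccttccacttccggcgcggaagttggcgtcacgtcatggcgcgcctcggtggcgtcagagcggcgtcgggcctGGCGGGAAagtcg
TOP3A (chr17:18315035-18315124, minus strand): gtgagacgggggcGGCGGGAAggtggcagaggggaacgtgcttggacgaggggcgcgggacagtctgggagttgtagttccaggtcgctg
MUS81 (chr11:65860353-65860442, plus strand): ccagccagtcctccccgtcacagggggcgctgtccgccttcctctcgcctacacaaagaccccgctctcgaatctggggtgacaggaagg

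BRIP1, RAD51AP1, BLM, RMI1, FANCD2 and TOP3A carry GGCGGGAA in the direction of the gene, and RAD54L carries it on the other strand. BLM holds the letters at both ends of its stretch, with the CCAAT box in both directions between them. In TOP3A the same letters stand beside the smallest change of the genes shown.

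Other DNA repair genes were read from 7 lists for comparison. Of their 114 tested genes, 14 reached 1 FPKM in no HPC library and so entered through the DMSO libraries alone, and 0 entered through the HPC libraries alone, so each list is also given without the filter. The 14 were 2 other Fanconi, 8 other recombination, 3 base excision and 1 nucleotide excision genes, and they had to be lower. Over all genes, 44.8% were called lower and 42.9% higher with the filter, and 36.2% and 31.2% without it. The other Fanconi pathway genes had 12 lower, 4 higher and 2 not called of 18 tested, with a median log2 fold change of -0.17 (10 lower and 4 higher of 19 without the filter, median -0.15). CENPX, a histone-fold partner of FANCM, averaged 2.05 ± 0.135 FPKM in HPC and 4.02 ± 0.321 FPKM in DMSO (-0.93, adjusted p = 3.04e-09, limma), and UHRF2, a ubiquitin ligase that binds crosslinks, 6.89 ± 0.121 FPKM in HPC and 3.29 ± 0.0526 FPKM in DMSO (1.05, adjusted p = 3.81e-13, limma). The other homologous recombination genes had 15 lower, 9 higher and 3 not called of 27, with a median of -0.30 (17 lower and 9 higher of 33 without the filter, median -0.27). MMS22L, which acts at stalled forks, averaged 0.511 ± 0.0272 FPKM in HPC and 1.48 ± 0.0167 FPKM in DMSO (-1.37), and SFR1, a recombination cofactor, 25.3 ± 1.08 FPKM in HPC and 11.2 ± 0.261 FPKM in DMSO (1.17). MMS22L was among the genes that entered through the DMSO libraries alone. The other checkpoint genes had 12 lower, 2 higher and 4 not called of 18, with a median of -0.53 (15 lower and 2 higher of 21 without the filter, median -0.62). Among them CDC25B, a phosphatase that starts mitosis, averaged 4.60 ± 0.242 FPKM in HPC and 14.1 ± 0.335 FPKM in DMSO (-1.59), and TTI2, a stabiliser of ATM and ATR, 1.90 ± 0.0646 FPKM in HPC and 1.56 ± 0.0341 FPKM in DMSO (0.27).

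The other 4 lists hold other ways of repair. With the filter, the calls in end joining and nucleotide excision lay near the shares over all tested genes, 44.8% lower and 42.9% higher. Non-homologous end joining had 5 lower, 4 higher and 1 not called of 10, with a median of -0.16. Without the filter it had 5 lower and 5 higher of 14, and its median was 0.01. XRCC4 averaged 2.14 ± 0.129 FPKM in HPC and 3.69 ± 0.164 FPKM in DMSO (-0.76), and the ligase it holds, LIG4, 1.85 ± 0.0657 FPKM in HPC and 1.45 ± 0.108 FPKM in DMSO (0.34). Mismatch repair had 3 lower and 2 higher of 5, with a median of -0.52. Without the filter it had 3 lower and 4 higher of 7, and its median was 0.27. PMS1, a MutL homolog, averaged 1.78 ± 0.093 FPKM in HPC and 1.09 ± 0.0334 FPKM in DMSO (0.66). Base excision and single-strand break repair had 10 lower and 7 higher of 17, with a median of -0.74, and 3 of the 17 had entered through the DMSO libraries alone. Without the filter it had 12 lower and 9 higher of 22, and its median was -0.28. The uracil glycosylase UNG averaged 4.23 ± 0.133 FPKM in HPC and 11.0 ± 0.345 FPKM in DMSO (-1.35), and PARP2, a sensor of nicked DNA, 7.19 ± 0.318 FPKM in HPC and 3.01 ± 0.125 FPKM in DMSO (1.23). Nucleotide excision repair had 8 lower, 8 higher and 3 not called of 19, with a median of -0.02 (10 lower and 8 higher of 21 without the filter, median -0.06). The helicase ERCC2 averaged 2.61 ± 0.0948 FPKM in HPC and 4.52 ± 0.124 FPKM in DMSO (-0.77), and CDK7, a kinase of the same TFIIH complex, 8.09 ± 0.255 FPKM in HPC and 4.51 ± 0.158 FPKM in DMSO (0.83).

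**Figure D5:**
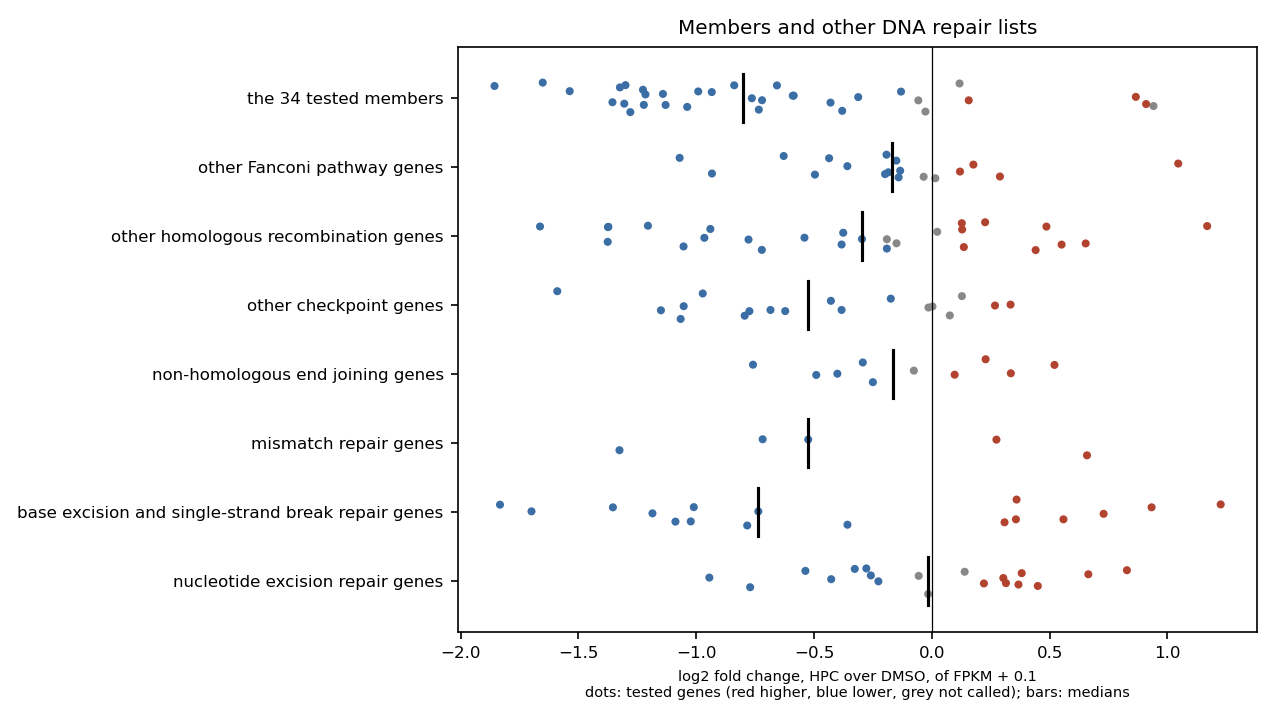
Log2 fold change of FPKM + 0.1, HPC over DMSO, of the tested genes among the 41 members and in 7 other DNA repair lists, with a bar at each median. With the filter the members' median is -0.80 and the others run from -0.74 in base excision repair to -0.02 in nucleotide excision repair. Without the filter the members' median is -0.92 and the others run from -0.62 in the checkpoint genes to 0.27 in mismatch repair.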

How the data were processed

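Poly(A) RNA of 10 libraries was sequenced in pairs on an Illumina instrument, per the labels' protocols. The authors deposited FPKM for 16734 genes. Tools named in the submitters' processing notes are STAR 2.7.7a, fastp 0.23.2 and edgeR, and the build is GRCh38.p13. What counted the reads, on which annotation and whether by strand is not given in the sources used here. Whole reads could be recovered from the steps between values, within 0.0001 of a read, for all 15208 genes above 0 in at least 3 libraries.

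The groups were compared on log2(FPKM + 0.1), which understates the change of low genes, with limma 3.58.1 (trend and robust, two-sided) in R 4.3.3 for the 9150 genes that reached 1 FPKM in 5 or more libraries, with Benjamini-Hochberg adjustment over all of them at 0.05. The fit without a filter covered all genes. Both fits were tested on simulated data, in which they recovered the planted changes and the share of false calls came out above the threshold. With the filter, 200 of 200 planted changes were recovered and 9.50% of the calls were false, against a threshold of 0.05. Changes were planted only in genes above a DMSO level that many members do not reach, and in far fewer genes than were called here. Recovery of changes in such low members was not tested. The members, the lists of genes and the comparisons were chosen with earlier results of these data known. Values in every library are given for the called member with the largest change in each role, called members that were higher, and a fixed set of well-known genes, and each other list gives its called gene with the smallest p in each direction. The alternatives were 22 settings, of which limma's voom used the recovered reads. Gene coordinates and shared exon bases come from GENCODE 29, whose release can differ from the authors'. Other computations used Python 3.11.15, pandas 2.3.3, NumPy 2.4.6 and SciPy 1.17.1. Some genes that the rule took are not reported here.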

Additional observations from a re-analysis of the deposited data

Results flagged for a closer look

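Of 124 groups of 5 libraries examined for a value far from the others, 3 were set apart, and chance sets apart about 1 group in 20. The highest DMSO value of TOP3A was 2.21 FPKM, with the other DMSO libraries between 2.07 and 2.09 FPKM. The highest DMSO value of C1orf112 was 1.37 FPKM, with the others between 1.20 and 1.25 FPKM. The highest HPC value of CENPX was 2.29 FPKM, with the others between 1.98 and 2.01 FPKM.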

How the results depend on the processing

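The count of members called lower was 27 whichever library was left out, and the count called higher 3 to 4. Members lower by at least 1.5-fold ranged from 21 to 23, and other Fanconi genes called higher from 2 to 3. The labels do not say that a replicate number pairs libraries. The deviations of same-numbered libraries correlated between -0.0593 and 0.199, and not every library correlated best with its own number. With the replicate number as a block, 27 members were lower and 3 higher, as without it. With at least 5 FPKM required, RMI1 was the only member tested. It reached 5 FPKM in the DMSO libraries alone and so had to be lower. The counts were 1 member lower (also by 1.5-fold) and 0 higher (0 by 1.5-fold), of 1836 lower and 1969 higher genes. Under that filter, which tests fewer genes, lower and higher were 1 and 2 for other Fanconi, 3 and 3 for other recombination, 3 and 0 for other checkpoint, 3 and 1 for end joining, 5 and 2 for base excision and 2 and 4 for nucleotide excision genes, mismatch repair had 0 higher, and all lists had 20 and 12. A pseudocount of 1 left 15 members lower and 1 higher by 1.5-fold. Rescaling to TPM, the non-mitochondrial sum and a threshold of 0.01 each left 2 other Fanconi genes higher. The non-mitochondrial sum also left 5 other recombination and 2 end joining genes higher, moved the median of all genes to -0.19 and the share of calls that were lower to 63.4%, against 51.1%. No filter gave 4 higher mismatch repair genes. Quantile normalization and voom each gave 4 higher checkpoint genes, and voom 5 higher members. Signs turned for NBN (-0.0057) and SLX4 (-0.036) with the non-mitochondrial sum, and for RAD51C with quantile normalization (0.046) and voom (0.025). RAD51C was called lower with the non-mitochondrial sum (-0.19), SLX4 higher with quantile normalization (0.31), voom (0.18) and without DMSO replicate 3 (0.17), and RAD50 with voom (1.03). Of the changes of single genes, 703 kept their direction and side of the threshold. The causes of these differences were not tested. The recovered reads limit counting error only.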

Other observations

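Several members share a start region with a gene read from the other strand, which gives a view the comparisons above do not use. Starts lay within 1000 bases of each other, and the values are means of 5 libraries with log2 fold changes from the fit without a filter. Only protein-coding genes were taken, and neighbours whose starts overlapped the member's beyond a small allowance were left out. The list of neighbours is therefore not complete. MOSPD2, whose start is 372 bases from that of FANCB, averaged 7.10 ± 0.177 FPKM in HPC and 4.85 ± 0.0321 FPKM in DMSO (0.54), while FANCB stood at -1.30. NBR1, 236 bases from BRCA1, averaged 11.7 ± 0.413 FPKM in HPC and 10.5 ± 0.165 FPKM in DMSO (0.16), while BRCA1 stood at -0.59. HNRNPK, 95 bases from RMI1, averaged 55.5 ± 1.05 FPKM in HPC and 67.7 ± 0.946 FPKM in DMSO (-0.29), against -1.28 for RMI1. C12orf4, 290 bases from RAD51AP1, stood at -0.15, against -1.36 for RAD51AP1, and MRPL27, 6 bases from EME1, at -0.28, against -1.36 for EME1. CEP89, 218 bases from FAAP24, averaged 2.97 ± 0.135 FPKM in HPC and 2.95 ± 0.0672 FPKM in DMSO (0.01), while FAAP24 stood at -0.96. ZFYVE21, 226 bases from XRCC3, stood at -1.20 beside -1.07, and FKBP3, 621 bases from FANCM, at -0.65 beside -0.92. Beside members that changed little, SMCR8 stood at 0.48 (TOP3A -0.13), DNASE1 at -0.35 (SLX4 0.12) and DCTN5 at -0.11 (PALB2 -0.06). The remaining neighbours taken by this rule, of BRCA2, RAD51C and RAD51D, averaged at most 0.0901 FPKM in either group.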
